A study of Rattus norvegicus with 52 samples.

Results

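Stained liver sections from F344 rats given clofibric acid (CA) at 0.54% were compared with stained liver sections from untreated rats, by the source label of each array. The comparison rests on 5 arrays at 0.54% CA and 8 control arrays, 13 of the 52 arrays in the series, each holding total RNA of 1 sample. Stained sections at 0.29% CA (7 arrays) entered the same model and gave a second dose, and entire liver sections at 0.54% CA (6 arrays) and from untreated rats (8 arrays) served to compare preparations. The series title sets such sections beside liver taken by laser capture microdissection, a method that lifts selected cells off a slide with a laser. The sources used here do not give the stain, the route and length of dosing, or the sex and age of the rats. Since the labels do not state that each array stands for its own rat, the p-values measure only the spread between these samples, which may be technical.

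Clofibric acid is the active form of the lipid-lowering drug clofibrate. It activates PPARα, a nuclear receptor that is abundant in hepatocytes and that, paired with RXR, turns on genes for the uptake and oxidation of fatty acids. In rats and mice, fibrates also make peroxisomes multiply and the liver enlarge.

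The arrays carried 8740 probe sets besides 59 controls. The deposited table names them by an ID built on a GenBank accession and pairs none with a gene, and 0 of the 7683 accessions matched the gene table used here. Probe sets are therefore given by ID, at most 2 that rose and 2 that fell for each comparison. Lists of fatty acid oxidation, lipid, drug metabolism and cell type marker genes could not be applied, and the liver label was not checked against marker genes. Values are linear whole-number intensities, of which 20.9% to 29% lay below 0 on a stained array. For tests they were quantile normalized, raised to a floor of 4 and put on the log2 scale. Of the stained intensities, 36.6% lay at or under that floor.

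The 3' control probe set for GAPDH, a glycolytic enzyme used as a standard, differed in level between the 2 groups of stained arrays. The deposited intensity of the GAPDH 3' probe set was 2390, 1934, 2718, 1470 and 2218 on the 0.54% CA arrays, against a lowest value of 359, a median of 748 and a highest of 1740 on the 8 controls. The groups overlapped, since replicate 4 at 0.54% CA lay below controls 1, 3 and 4, and the other 5 controls were all below 1000. On the log2 scale the means were 11.04 ± 0.34 (SD, n = 5) and 9.64 ± 0.95 (SD, n = 8; two-sided exact permutation p = 0.00777, for a measure chosen after seeing the data). The same GAPDH probe set had a median of 1990 in entire sections at 0.54% CA (n = 6) and of 2102 in entire controls (n = 8). The 3' control probe set for beta-actin, also added after seeing the data, did not pass the test. Its log2 means on stained arrays were 8.27 ± 0.91 at 0.54% CA (SD, n = 5) and 7.32 ± 1.27 in controls (SD, n = 8; exact permutation p = 0.152).

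The planned measures of array quality did not pass the test after adjustment over the family of 5. The log2 ratio of the GAPDH 3' to the 5' probe set, which is high where the 5' side of a transcript is lost, was 2.44 ± 1.0 at 0.54% CA (SD, n = 5) and 3.31 ± 0.78 in controls (SD, n = 8; exact permutation p = 0.0979, adjusted 0.245). The 50 brightest probe sets held 19.9 ± 2.79% of the signal at 0.54% CA (SD, n = 5) and 26.4 ± 5.07% in controls (SD, n = 8; exact permutation p = 0.0140, adjusted 0.0699). The 5S rRNA probe set read 229 on replicate 5 at 0.54% CA and 232 on control replicate 8, and at most 129 on every other array of the 2 groups. The median correlation between replicates was 0.923 at 0.54% CA and 0.900 in controls. Counts of calls that move with these measures are given below with and without the arrays concerned.

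**Figure D1:**
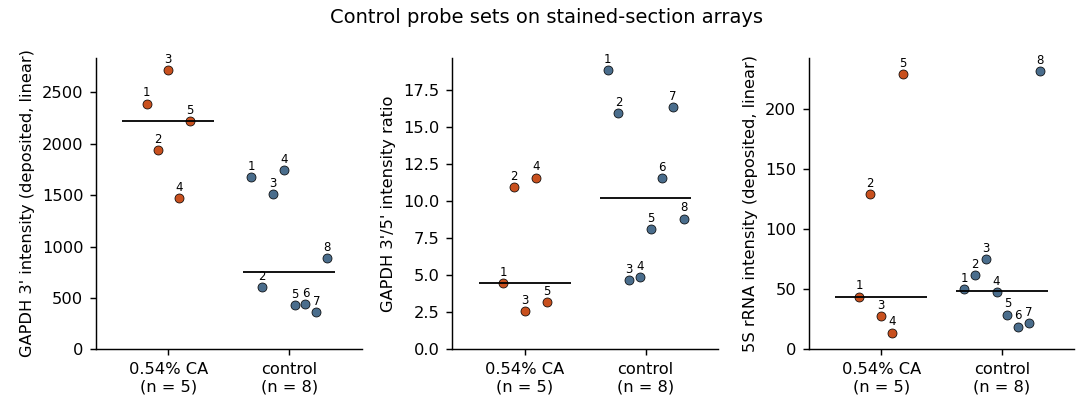
Control probe sets on the stained arrays at 0.54% CA (orange, n = 5) and on the stained controls (blue, n = 8), as deposited linear intensities of GAPDH 3' and 5S rRNA and as the GAPDH 3'/5' ratio; numbers are replicates and lines are medians. For GAPDH 3', 5 of the 8 controls lay below 1000 and all 0.54% CA arrays above it.

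Between 0.54% CA and control in stained sections, the level of 517 probe sets differed, of 8058 tested, which is 6.42%. Of these, 250 rose (3.1% of those tested) and 267 fell (3.31%), by limma with Benjamini-Hochberg adjusted p under 0.05. An unadjusted p under 0.05 was reached by 1474, and the median log2 fold change of all tested probe sets was -0.05. In whole sections, fewer cells of a type and less RNA per cell cannot be told apart.

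Rises were larger than falls at the far end. The median called rise was 2.85-fold, and the median called fall was 2.35-fold. At least 2-fold changes numbered 195 rises and 178 falls. At least 8-fold changes numbered 36 rises and 13 falls, and at least 32-fold changes 9 rises and 1 fall. The size of a low probe set's change depends on the floor: 9 of the 250 rises had all 8 controls at the floor, and 13 of the 267 falls had all 5 arrays at 0.54% CA there. With a floor of 20, the 2 probe sets with the largest rises changed 28.5- and 13.7-fold. The 2 with the largest falls changed 16.7- and 18.7-fold. The counts by fold were not repeated at that floor.

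The share of probe sets called differed with their brightness. When the tested probe sets were split into 3 equal groups by mean level, 13.4% of the brightest group was called, with 159 rises and 202 falls. The middle group had 4.88% called, with 72 rises and 59 falls, and the dimmest group 0.931%, with 19 rises and 6 falls. The dimmest group had mean levels of 4 to 7.37, at or just above the floor of 4, which limits the changes that can be called there. The median called change was 2.27-fold in the brightest group, 4.22-fold in the middle group and 2.45-fold in the dimmest. By the wording of the ID, 12.2% of the 246 tested probe sets marked mrna were called, 8.42% of the 570 marked cds, 5.49% of the 3226 that begin with rc_, and 0 of the 69 marked utr.

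**Figure D2:**
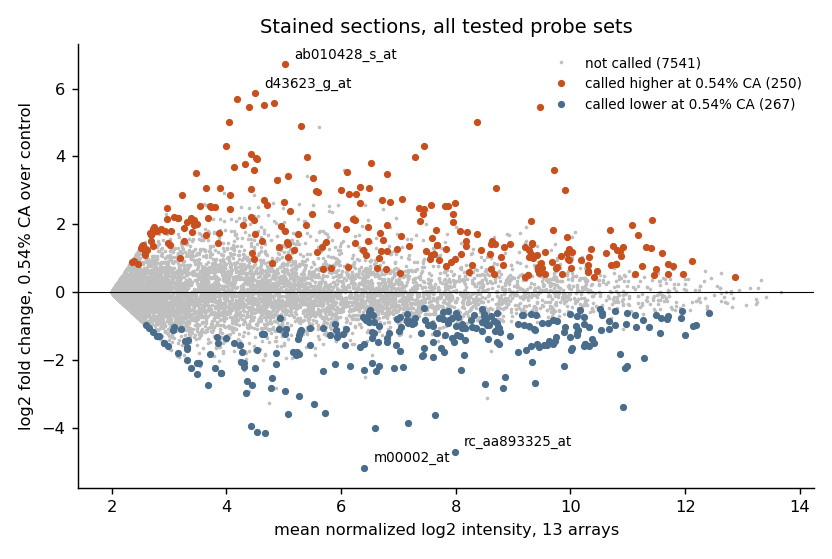
Log2 fold change of 0.54% CA over control in stained sections against the mean normalized log2 intensity of the 13 arrays, for the 8058 tested probe sets. The 250 called rises are orange, the 267 called falls blue, and the 4 probe sets given in detail carry their IDs.

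For 311 tested probe sets, 3.86% of all, the 5 arrays at 0.54% CA and the 8 controls did not overlap. Among called probe sets this held for 155 of the 250 rises (62%) and 134 of the 267 falls (50.2%). The calls were chosen from the same values, so these shares describe them and give no further support.

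The largest called rise was that of ab010428_s_at. Its deposited intensity was 540, 584, 626, 809 and 532 at 0.54% CA, against -7 to 10 with a median of 1 in the 8 controls. All CA arrays lay far above all controls, of which only 3 exceeded the floor. The change was 105-fold (log2 6.72 ± 0.31, SE, adjusted p = 6.69e-11), and 28.5-fold with a floor of 20.

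The second largest rise was that of d43623_g_at, with intensities of 271, 248, 333, 402 and 216 at 0.54% CA and of -14 to 13 with a median of 0 in controls. Only 1 of the 8 controls was above the floor. The change was 58.1-fold (log2 5.86 ± 0.30, SE, adjusted p = 6.69e-11), and 13.7-fold with a floor of 20.

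The largest called fall was that of m00002_at, whose intensity was 7, 12, 14, 9 and 6 at 0.54% CA. In the 8 controls the lowest value was 76, the median 364 and the highest 942. The groups did not overlap, but the controls spread widely, and the 4 lowest (76, 115, 107 and 235 on replicates 2, 5, 6 and 7) were also the 4 lowest for GAPDH 3'. The change was 35.6-fold (log2 -5.16 ± 0.63, SE, adjusted p = 1.61e-05). Without the 7 stained arrays with GAPDH 3' below 1000 (5 controls and 2 at 0.29% CA), an alternative added after seeing the data, the fall was 82.8-fold (adjusted p = 3.84e-06, log2 -6.37 ± 0.41, SE). With a floor of 20 it was 16.7-fold lower.

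The second largest fall was that of rc_aa893325_at, at 61, -76, 66, 98 and 32 at 0.54% CA, against 402 to 1151 with a median of 944 in the 8 controls. The groups did not overlap. The change was 25.8-fold (log2 -4.69 ± 0.55, SE, adjusted p = 9.40e-06). Replicate 2 at 0.54% CA, which read -76 and was raised to the floor, sets part of that size: without it the change was 15.1-fold (log2 -3.91, adjusted p = 8.06e-07).

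**Figure D3:**
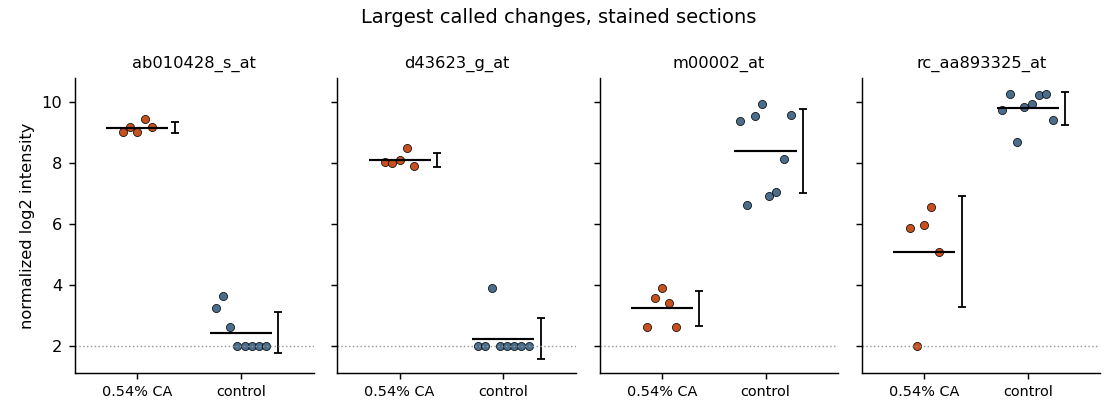
Normalized log2 intensity of the 4 probe sets with the largest called changes, on the stained arrays at 0.54% CA (orange, n = 5) and the stained controls (blue, n = 8); lines are means, bars SD, and the dotted line is the floor. The 2 groups do not overlap for any of the 4, and rc_aa893325_at has 1 of its 5 CA arrays at the floor.

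Many accessions on the array are read by more than 1 probe set, which gives a check within the same samples. Of the 901 accessions with at least 2 tested probe sets, 106 had at least 1 called and 20 had 2 or more called, with 0 in opposite directions. Of the 86 uncalled partners of a called probe set, 63 (73.3%) had the same sign as the call. The share of equal signs over all probe sets that share an accession was not taken. Within an accession with several calls, the log2 fold changes spanned a median range of 0.84 and at most 2.88. Probe sets of 1 accession share its RNA and the arrays, so they are not replicates of each other.

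The number of calls changed with the treatment of the arrays with little GAPDH. It was 269 (137 rises and 132 falls) without the stained arrays with GAPDH 3' below 1000, which also leaves only 3 controls. With log2 GAPDH 3' as a covariate it was 407 (204 rises and 203 falls), of which 277 were among the 517, and with the log2 GAPDH 3'/5' ratio in its place 323 (172 rises and 151 falls). Without the 3 stained arrays with 5S rRNA above 200 it was 450. In all 4 of these fits, 179 of the 517 calls (34.6%) were made in the same direction, 97 rises and 82 falls, with a median change of 3.51-fold. In all 13 fits that left out 1 of the 13 arrays, 307 of the 517 (59.4%) were called in the same direction. The 4 probe sets named above were called in every one of these fits. The part of GAPDH level in the other calls was not tested.

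The higher dose was set against the lower within stained sections, to see where the response depended on dose. Between 0.54% and 0.29% CA, 8 of 8058 probe sets differed (0.0993%), of which 3 were higher and 5 lower at 0.54%, and 390 had an unadjusted p under 0.05. Against the same controls, 292 probe sets (3.62%) were called at 0.29% CA and 517 at 0.54% CA. Both doses share those controls, so their calls are not independent.

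The clearest difference between the doses was a fall in j00738_s_at. Its intensity lay between 4094 and 7161 with a median of 4787 in the 8 controls, between 756 and 2431 with a median of 1819 in the 7 arrays at 0.29% CA, and at 785, 474, 429, 645 and 251 at 0.54% CA. It fell with each step of dose, and 1 array at 0.29% CA reached the range of the higher dose. The fall between the doses was 3.62-fold (log2 -1.85 ± 0.22, SE, adjusted p = 0.000423). Against controls it was 10.3-fold lower at 0.54% CA (adjusted p = 1.69e-09).

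Probe set m15114_g_at was highest at the higher dose. It read -12 to 5 in controls, 19, 20, 31, 41, 74, 68 and 7 at 0.29% CA, and 98, 133, 147, 215 and 150 at 0.54% CA. All arrays at 0.54% lay above all at 0.29%, with a 4.36-fold difference (log2 2.12 ± 0.37, SE, adjusted p = 0.0481). The call was lost in 8 of the 12 fits that left out 1 array. It was also lost with the GAPDH ratio as covariate (adjusted p = 0.0623) and without the stained arrays with 5S rRNA above 200 (adjusted p = 0.0810).

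The other 2 probe sets named between the doses lay near the floor in part. Probe set af065431_s_at had intensities of -3 to 4 at 0.29% CA and of 19, 11, 11, 1 and 14 at 0.54% CA, with all 8 controls at the floor (log2 1.32 ± 0.25, SE, adjusted p = 0.0485 between doses). Probe set l02529_at read 24 to 55 in controls, 20 to 94 at 0.29% CA, and 0, -18, -36, 25 and 25 at 0.54% CA (log2 -2.83 ± 0.52, SE, adjusted p = 0.0485 between doses). With a floor of 20 the difference of l02529_at was log2 -1.43, and the call was lost (adjusted p = 0.107). Leaving out 1 array ended the call of af065431_s_at in 11 of 12 fits and that of l02529_at in 8 of 12. Entire sections give mean log2 intensities in controls (n = 8), at 0.29% (n = 8) and at 0.54% CA (n = 6), in that order. They were 11.83, 10.16 and 8.33 for j00738_s_at and 2.0, 5.0 and 7.21 for m15114_g_at. For l02529_at they were 5.53, 5.74 and 5.28, and for af065431_s_at 2.0, 2.59 and 2.46. The doses were not tested against each other in entire sections.

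**Figure D4:**
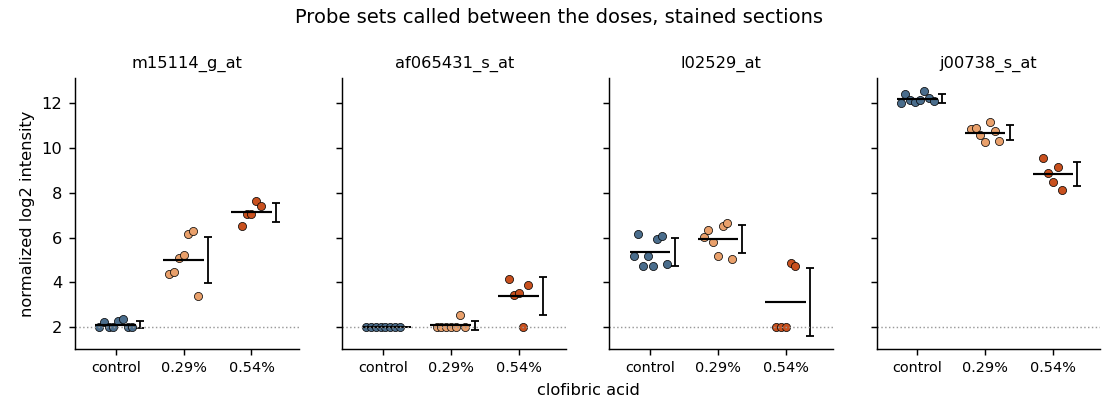
Normalized log2 intensity of the 4 probe sets named between the doses, on stained arrays from untreated rats (blue, n = 8) and at 0.29% (light orange, n = 7) and 0.54% CA (orange, n = 5); lines are means, bars SD, and the dotted line is the floor. Values of j00738_s_at stepped down with dose and those of m15114_g_at stepped up.

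The response in stained sections was compared with that in entire sections, whose arrays are separate; the labels do not say whether the rats were. All 517 probe sets called in stained sections were tested in entire sections too, where 1230 of 7701 were called (16%). The sign was the same for 491 of the 517 (95.0%). The share of equal signs over all tested probe sets was not taken. Both preparations called 195 rises and 187 falls, with 0 calls in opposite directions. These are 73.9% of the stained calls and 31.1% of the entire calls. Across the 517 probe sets the log2 fold changes of the preparations had a Pearson r of 0.887, as a description over genes picked in one of them.

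Changes called in stained sections were a median of 1.35 in absolute log2 there and 0.92 in entire sections, and the choice of probe sets by their stained values favours the first. The 842 probe sets called in entire sections only were a median of 0.46 in stained and 0.85 in entire sections. That set leaves out every stained call, so its choice favours a small stained median and is not the reverse of the first. Of the 135 calls made in stained sections only, 109 (80.7%) had the same sign in entire sections. A call in 1 preparation alone does not show a difference between them, which was tested by itself.

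**Figure D5:**
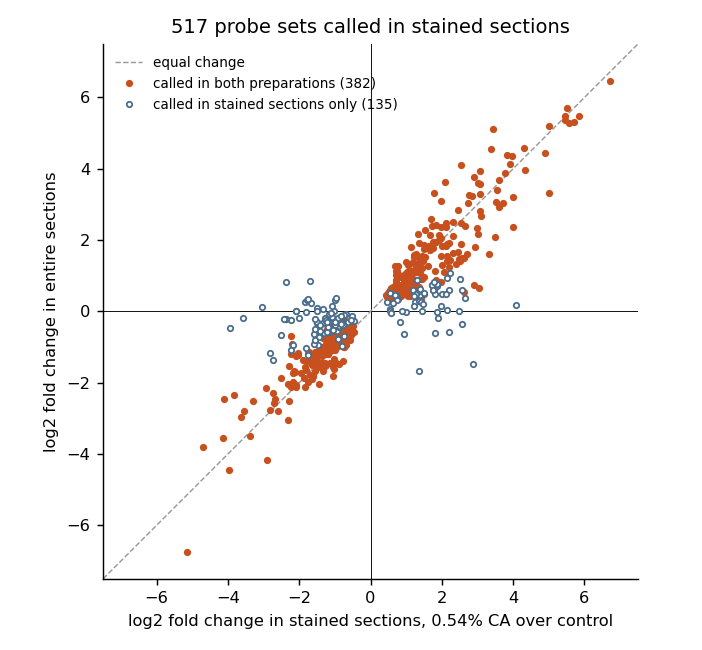
Log2 fold change of 0.54% CA over control in stained (horizontal) and entire sections (vertical) for the 517 probe sets called in stained sections; filled orange points (382) were called in both, open blue points (135) in stained sections only, and the dashed line marks equal change. Most points lie in the 2 quadrants of equal sign.

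The effect of 0.54% CA differed between stained and entire sections for 11 of 8253 probe sets (0.133%), 2 higher and 9 lower in stained sections, and 810 had an unadjusted p under 0.05. For 7 of the 11, at most 5 of the 20 stained arrays were above the floor, and for 2 of these none was. Only 1 of the 517 stained calls was among the 11. That probe set changed by log2 -3.93 in stained and -0.46 in entire sections (difference log2 -3.48 ± 0.70, SE, limma adjusted p = 0.0174). It was above the floor on 10 of the 20 stained arrays but on only 1 entire array, so a fall in entire sections could hardly be seen.

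The larger named differences were changes in entire sections of probe sets that lay at the floor on the stained arrays. Probe set rc_aa799326_s_at read -25, -108, 0, -10 and -29 at 0.54% CA in stained sections and -69 to -4 in stained controls, all at the floor. In entire sections it read 341, 302, 221, 225, 326 and 122 at 0.54% CA and -29 to 11 in controls. The rise in entire sections was log2 5.44 ± 0.53 (SE, adjusted p = 1.24e-07). With every stained array at the floor, the difference of the effects only restates that rise (log2 -5.44, or -3.34 with a floor of 20) and says nothing of a change in stained sections. The same held for ab005743_g_at, at the floor on all 20 stained arrays after normalization, with 44 to 164 at 0.54% CA and -14 to 3 in controls of entire sections. Its difference was log2 -4.64, or -2.32 with a floor of 20. Another probe set of the same accession was also among the 11 (difference log2 -3.59 ± 0.42, SE, limma adjusted p = 5.59e-07). That one was above the floor on 10 of the 20 stained arrays and on 22 entire arrays.

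In the opposite direction, x57999cds_at and l46874_s_at fell in entire sections and were near the floor in stained ones. Probe set x57999cds_at read -89 to 12 at 0.54% CA and -57 to 11 in controls of stained sections, and -48 to 12 at 0.54% CA and 27 to 105 in controls of entire sections (difference log2 3.58 ± 0.64, SE, adjusted p = 0.00252, and log2 1.62 with a floor of 20). Its call was lost without the stained arrays with GAPDH 3' below 1000 (adjusted p = 0.111) and with GAPDH 3' as a covariate (adjusted p = 0.0665). Probe set l46874_s_at read -11 to -2 at 0.54% CA and -14 to 4 in controls of stained sections, and 6 to 62 at 0.54% CA and 33 to 192 in controls of entire sections (difference log2 2.49 ± 0.54, SE, adjusted p = 0.0401, and log2 1.86 with a floor of 20). That call was lost in 18 of the 27 fits that left out 1 array, and under 7 of the 13 other settings (adjusted p up to 0.298).

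One accession, chosen after its values were seen, gave both outcomes at once. Probe set y09333_g_at rose in stained sections, to 257, 184, 249, 172 and 224 at 0.54% CA, against -39 to -7 in controls, all of them at the floor. Set against the floor of 4 it was 51.9-fold higher (log2 5.70 ± 0.29, SE, adjusted p = 6.69e-11), and against a floor of 20 it was 10.4-fold higher, so the size is that of the floor chosen. The term for a difference from entire sections did not pass the test (log2 0.40 ± 0.80, SE, adjusted p = 0.900). Its sign rests on replicate 3 of entire sections at 0.54% CA, which read -56: without that array the term was log2 -0.67 (adjusted p = 0.486). The other probe set of the accession, y09333_at, read 1, -279, 12, -4 and 3 at 0.54% CA and -16 to -4 in controls of stained sections. In entire sections it read 100, 93, 84, 37, 45 and 34 at 0.54% CA and -2 to 15 in controls, and the effects differed by log2 -2.78 ± 0.39 (SE, adjusted p = 3.00e-05), or by log2 -1.30 with a floor of 20. Where on the transcript each probe set lies was not analysed here.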

How the data were processed

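The authors deposited linear intensities, 1 for each probe set on each of 52 arrays; their software, scaling and presence calls were not given in the sources used here. Groups came from the source labels. Control probe sets were left out of the tests. Intensities of the 8740 others were quantile normalized between all arrays, raised to a floor of 4 (the 10th percentile of positive values) and put on the log2 scale. Probe sets above the floor on at least 1 array were fitted with limma 3.58.1 (R 4.3.3; lmFit, eBayes, two-sided): 20 stained arrays in 3 groups for the dose contrasts, 42 stained and entire arrays in 6 groups for the difference between preparations, and 22 entire arrays alone. Quality measures had exact permutation tests (SciPy 1.17.1). On simulated data for the main comparison (8058 probe sets), 100 probe sets were changed 2-fold and 100 were changed 4-fold. Of these, 50% and 84% were recovered, and 3.60% of the calls were false. The changed probe sets were drawn only from those well above the floor in controls, so recovery among dim probe sets was not tested. The simulated noise was independent between probe sets and arrays, without differences shared by a whole array. The number of arrays limits the precision.

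The comparison, lists and rules were chosen with earlier results of these data known. Named probe sets are the 2 largest called differences each way of each contrast (against control, only those above the floor on every array of the higher group), plus the pair on y09333. Gene symbols could not be assigned, so lists by symbol were not used.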

Additional observations from a re-analysis of the deposited data

Results flagged for a closer look

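For 5 named probe sets the term for a difference in the effect of 0.54% CA between stained and entire sections passed the threshold. The log2 differences, stained minus entire, were 3.58 for x57999cds_at, 2.49 for l46874_s_at, -5.44 for rc_aa799326_s_at, -4.64 for ab005743_g_at and -2.78 for y09333_at. No stained array measured rc_aa799326_s_at or ab005743_g_at above the floor, so for these the difference is only the rise in entire sections with its sign turned, and no change in stained ones was tested.

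Among 45 groups of named probe sets or array quality measures, 9 had 1 array far from the others. All 9 were of named probe sets. Chance flags about 1 in 20 groups of continuous values, which is no baseline here: in 6 of the 9 the rest of the group was tied at the floor, so that any array above it stands apart. In 2 of them the far array was the low one among bright arrays. For y09333_g_at, replicate 3 of entire sections at 0.54% CA lay at the floor (log2 2.0) and the others had a median of 8.38. For ab005743_g_at, replicate 6 of that group was at 5.24 and the others had a median of 6.92. In the other 7 the rest of the group lay at or near the floor (median log2 2.0). These were d43623_g_at on stained control replicate 3 (3.91), l46874_s_at on stained control replicate 1 (2.20), rc_aa799326_s_at on entire control replicate 7 (3.39), x57999cds_at on stained 0.54% CA replicate 2 (3.58) and on stained control replicate 4 (3.60), y09333_at on stained 0.54% CA replicate 3 (3.67), and y09333_g_at on entire control replicate 5 (2.34).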

How the results depend on the processing

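Calls of 0.54% CA against control in stained sections numbered within 1.5 times of 517 under 13 of 16 alternatives, and were 323 with the GAPDH ratio as covariate, 950 with all 15 groups in the fit and, chosen after seeing the data, 269 without the stained arrays with GAPDH 3' below 1000. They ranged from 372 to 546 when 1 array was left out. The 8 calls between doses became 5 with the floor set before normalization, 4 with a filter of 5 arrays, 17 with array weights, 2 with the GAPDH ratio as covariate, 3 without the arrays in doubt (5S rRNA above 200; in entire sections a GAPDH ratio above 4), and 4 each with GAPDH 3' as covariate and without the arrays below 1000. On the deposited scale they split into 3 higher and 3 lower. Leaving out 1 array gave 1 (without replicate 1 at 0.54% CA) to 9. With the replicate number as a block, limma called 0 between doses (393 at an unadjusted p under 0.05; j00738_s_at adjusted p = 0.0518), 455 against control and 10 for the difference between preparations. Deviations from the group means correlated over 0.1 in 1 of 5 same-numbered pairs of 0.54% CA with control (-0.14 to 0.31). The same held for 1 of 5 pairs of 0.54% with 0.29% CA (-0.11 to 0.32). It held for 6 of 7 pairs of 0.29% CA with control (-0.17 to 0.50), where 4 of 7 arrays correlated best with their own number. Between 0.54% CA and control, pairs of unequal number reached 0.40 (0.54% CA replicate 5 with control replicate 8). The lowest was -0.36 (0.54% CA replicate 4 with control replicate 8). A block by number does not take up such links. The labels name nothing that a number shares, and the block was not used in the reported fits. The 11 differences between preparations became 31 with a floor of 20, 21 with array weights, 6 with either GAPDH covariate, and 23 without the arrays in doubt (11 higher and 12 lower), and ranged from 7 (without stained replicate 1 at 0.54% CA) to 21 (without entire control replicate 7). The causes were not tested. No named call changed direction. Signal near the floor limits the folds of dim probe sets.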

Other observations

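The remaining preparations had 1 array per CA dose and allow values only. For ab010428_s_at the deposited intensity at 0.54% CA was 761 in dehydrated, 326 in LCM-reference-time and 267 in microdissected sections, against controls of -8, of 12, and of 6 and 0 in the same preparations. For m00002_at it was 5, 0 and 45 at 0.54% CA, against 1270, 328, and 223 and 360 in the controls. For rc_aa893325_at it was 83, 30 and 27 at 0.54% CA, against 712, 211, and 705 and 349 in the controls. Of the probe sets called in stained sections that differed at all between the arrays of a preparation, the sign was the same for 387 of 503 (76.9%) in dehydrated, 438 of 501 (87.4%) in LCM-reference-time and 477 of 509 (93.7%) in microdissected sections. The same share over all tested probe sets was not taken. Probe set y09333_g_at read 89, 161 and 156 at 0.54% CA in these 3 preparations, and its partner y09333_at read -5, -13 and -8 there.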
